A study of Homo sapiens with 6 samples.

Results

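The glial and neuronal intermediate filament genes were examined in mRNA-seq libraries of KNS42 cells, an established line from a pediatric glioblastoma (GBM). The 10 genes were taken by name from the 58174 genes of the deposited table and comprise GFAP, VIM, NES, SYNM, DES, PRPH, INA, NEFL, NEFM and NEFH. Cells grown with 10% FBS were transfected either with a control siRNA (siC, 3 libraries) or with siRNAs against MSI1, which encodes the RNA-binding protein Musashi1 (siMSI1, 3 libraries), and harvested after 72 h. Both groups carried an siRNA, and the comparison asks how depletion of MSI1 alters mRNA abundance in an adherent line that serves as a GBM cell model. Nothing in the labels says that the 3 libraries of a group came from separate cultures, so p-values measure the spread between these libraries, which may be technical.

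Intermediate filaments are the third cytoskeletal system beside actin and microtubules. Their subunits share a coiled-coil rod domain and pair lengthwise into non-polar, rope-like polymers. The vimentin-like subunits VIM, GFAP, DES and PRPH can each build a filament on their own, whereas NES and SYNM need a vimentin-like partner. NEFL, NEFM, NEFH and INA form the neurofilaments of axons. In the nervous system subunit usage follows cell identity: neural stem and progenitor cells carry NES and VIM, mature and reactive astrocytes add GFAP, and neurons carry neurofilaments, with PRPH mostly in peripheral neurons. In bulk RNA, fewer cells of a type and less RNA per cell cannot be told apart.

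Values are FPKM, the reads of a gene scaled to its length in kilobases and to the depth of the library, as deposited. The reads behind each FPKM value were whole numbers and summed to 14448513 to 18024080 per library in siC and to 13087025 to 14700593 in siMSI1. The target itself fell in each library, from 61.9 to 66.9 FPKM of MSI1 in siC to 11.2 to 12.3 FPKM in siMSI1 (log2 fold change −2.43, standard error 0.067, adjusted p = 8.7e-06, limma). Tests were made with limma on log2(FPKM + 0.1) for genes averaging at least 0.5 FPKM over all libraries (15069 genes), adjusted by the method of Benjamini and Hochberg, and a gene was called changed at an adjusted p of at most 0.01. Fold changes are on that log2(FPKM + 0.1) scale, which understates changes of low genes.

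The filament mRNA of these cells was vimentin with nestin and little else. In siC, VIM stood at 1035 ± 33.8 FPKM (SD, n = 3) and ranked 8 among the 19799 protein-coding genes by mean level over the 6 libraries. NES followed at 69.2 ± 1.01 FPKM, and GFAP was at 1.63 ± 0.335 FPKM. SYNM stood at 0.977 ± 0.059 FPKM and PRPH at 0.515 ± 0.084 FPKM (each SD, n = 3). Each of these 5 genes was apart from its neighbours in that order in all 3 siC libraries. DES, NEFH, INA, NEFL and NEFM followed with means between 0.056 and 0.172 FPKM, and each overlapped its neighbour in that order. Taken over the 10 genes, VIM held 93.4% ± 0.148 and NES 6.25% ± 0.129 of the summed FPKM in siC (SD, n = 3), and GFAP held 0.147% ± 0.029.

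**Figure D1:**
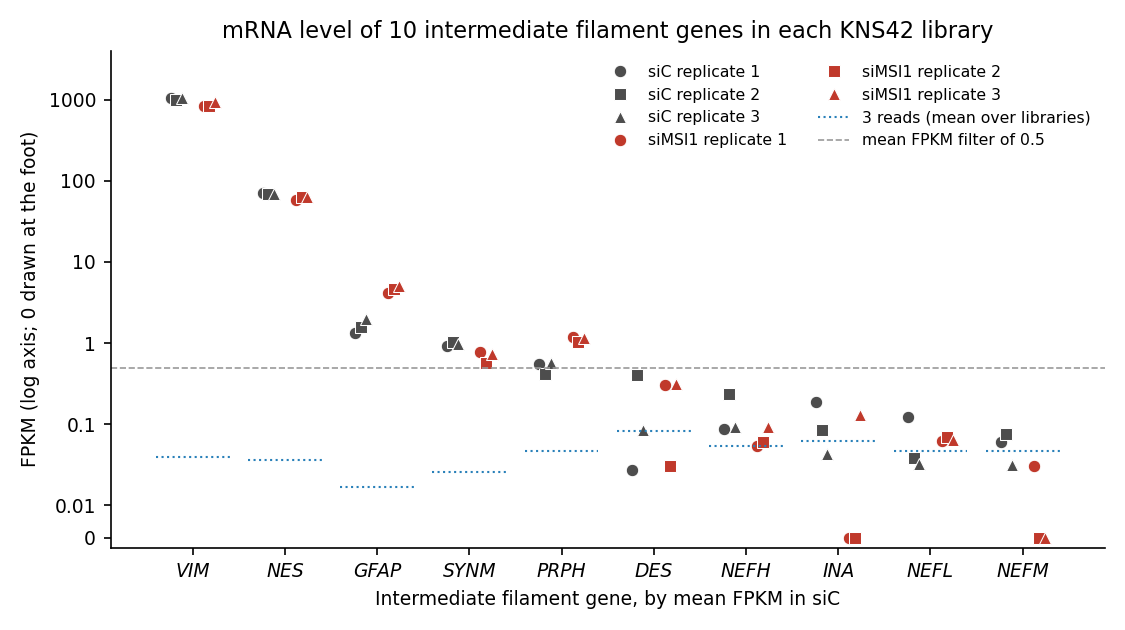
FPKM of the 10 filament genes in each library on a log axis, with siC in grey and siMSI1 in red, replicates by symbol, and values of 0 drawn at the foot. The dotted line of each gene marks 3 reads and the dashed line the filter of 0.5 FPKM. VIM and NES lie far above the others, GFAP and PRPH are higher in every siMSI1 library, and the 5 genes on the right lie at a few reads.

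On GRCh38, VIM lies on chromosome 10 from 17228241 to 17237593 and NES on chromosome 1 from 156668763 to 156677407. GFAP lies on chromosome 17 from 44903159 to 44916937, SYNM on chromosome 15 from 99098217 to 99135593 and PRPH on chromosome 12 from 49295147 to 49298686. INA lies on chromosome 10 from 103277138 to 103290346, DES on chromosome 2 from 219418377 to 219426735 and NEFH on chromosome 22 from 29480218 to 29491390. The pair NEFM (24913758 to 24919098) and NEFL (24950955 to 24956721) shares chromosome 8. The exon count of the canonical transcript separates the families. The vimentin-like genes GFAP, DES and PRPH have 9 exons and VIM 10, whereas NES, SYNM, NEFL and NEFH have 4 and NEFM and INA have 3.

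5 of the 10 genes passed the filter (VIM, NES, GFAP, SYNM and PRPH), and 1 of them, GFAP, was called changed, where 11.0% of all tested genes were. It was higher in siMSI1, as 5.15% of all tested genes were called. No filament gene was called lower, against 5.83% of all tested genes. An unadjusted p under 0.05 (limma) was found for 2 of the lower filament genes. In either direction, 5765 of all 15069 tested genes had one. VIM was called by limma's voom on the recovered reads, which called 2855 of all tested genes. The 3 siC and the 3 siMSI1 values did not overlap for any of the 5 genes, 2 of which were higher and 3 lower. Of all tested genes, 42.8% had groups that did not overlap, with 21.4% higher and 21.5% lower. The median log2 fold change of the 5 genes was −0.16, beside a median of 1.5e-05 over all tested genes.

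GFAP encodes the filament protein of astrocytes and is the usual marker of astroglial differentiation. In siC replicates 1 to 3 it was measured at 1.33, 1.57 and 1.99 FPKM, and in siMSI1 replicates 1 to 3 at 4.14, 4.65 and 5.04 FPKM. The lowest siMSI1 value was thus above the highest siC value, and the mean of siMSI1 was 282% of that of siC. These values rest on 241 to 347 reads per library in siC and on 738 to 876 reads in siMSI1, well above the 3 reads that were taken as the floor. The log2 fold change was 1.46 (standard error 0.158, 95% interval 1.09 to 1.82, adjusted p = 0.00090, limma). Among all tested genes, 127 had a larger rise. GFAP was called in all 16 alternative fits at the same threshold, with adjusted p-values of at most 0.0052. Even after this rise, GFAP mRNA stood at 4.61 ± 0.45 FPKM (SD, n = 3), far under VIM and NES in the same libraries.

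VIM encodes vimentin, the filament protein of mesenchymal cells, glial progenitors and most cultured lines. The siC libraries held 1053, 996 and 1056 FPKM of VIM, and the siMSI1 libraries held 835, 824 and 937 FPKM. All siMSI1 values lay under all siC values, with siMSI1 replicate 3 nearest to the control. The siMSI1 mean of 865 ± 62.1 FPKM (SD, n = 3) was 83.6% of the siC mean. The log2 fold change of −0.26 (standard error 0.074, 95% interval −0.43 to −0.088) missed the threshold with an adjusted p of 0.038 in limma. Without siMSI1 replicate 3, the adjusted p of VIM was 0.0096 at a log2 fold change of −0.32 (limma). The other fits without 1 library did not call VIM, with adjusted p-values from 0.080 to 0.15 (limma). In all, 4 of 16 alternatives called it.

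NES encodes nestin, the large subunit that marks neural stem and progenitor cells and joins vimentin filaments. Its level was 70.2, 68.2 and 69.2 FPKM in siC and 58.2, 63.5 and 63.7 FPKM in siMSI1. The groups did not overlap, and siMSI1 replicate 1 was the lowest library. The log2 fold change was −0.16 (standard error 0.063, 95% interval −0.31 to −0.019) and the adjusted p was 0.094 in limma, so NES was not called. No alternative called it either, and its adjusted p ranged from 0.010 to 0.27 over the 16 alternatives.

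SYNM encodes synemin, which links vimentin and desmin filaments to adhesion structures and anchors protein kinase A. It was low, at 0.922, 1.04 and 0.969 FPKM in siC and 0.772, 0.576 and 0.730 FPKM in siMSI1. Its reads numbered 108 to 147 per library in siC and 59 to 89 in siMSI1. All siMSI1 values were under all siC values, but the log2 fold change of −0.45 (standard error 0.209, 95% interval −0.93 to 0.035) had an adjusted p of 0.16 in limma.

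PRPH encodes peripherin, the vimentin-like subunit of peripheral sensory and autonomic neurons. The siC libraries held 0.552, 0.419 and 0.575 FPKM of PRPH and the siMSI1 libraries 1.20, 1.03 and 1.17 FPKM, on 33 to 36 and 59 to 77 reads per library. Each siMSI1 library was above each siC library, and the siMSI1 mean was 220% of the siC mean. The log2 fold change was 1.01 (standard error 0.222, 95% interval 0.50 to 1.53) with an adjusted p of 0.0147 in limma, which missed the threshold. 3 of 15 alternatives called PRPH, among them voom on the recovered reads (adjusted p = 0.00077, limma). Its mean of 0.515 FPKM in siC lies close to the filter of 0.5 FPKM, and so few reads limit how precisely its change can be given.

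**Figure D2:**
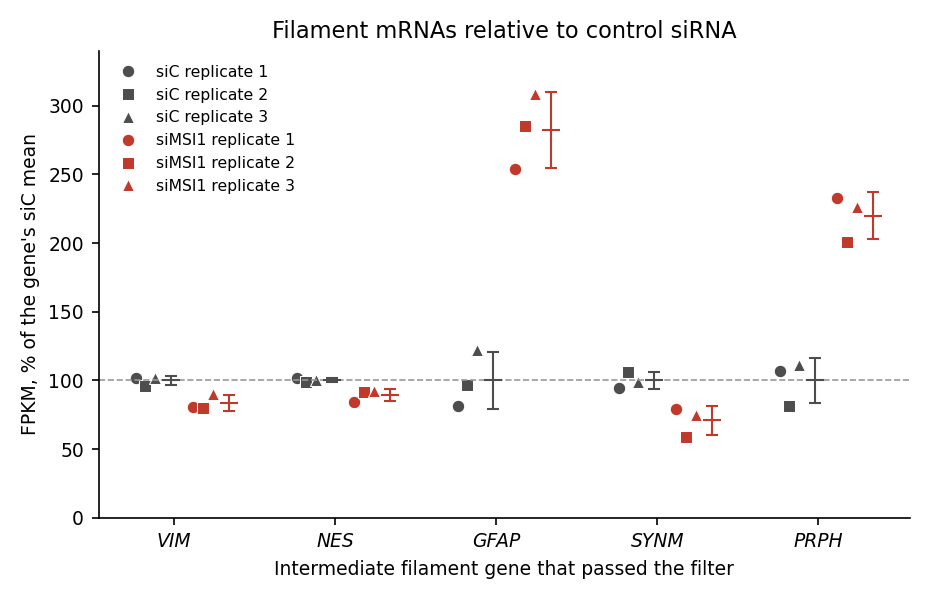
FPKM of the 5 tested filament genes in each library as a percentage of the gene's siC mean, with the mean ± SD (n = 3) of each group beside its points and siC in grey, siMSI1 in red. GFAP lies at 254% to 309% and PRPH at 201% to 233% in siMSI1, whereas VIM, NES and SYNM lie between 58.9% and 92.0%.

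Among the 3 vimentin-like genes that were tested, GFAP and PRPH had higher and VIM had lower values in every siMSI1 library, with a call for GFAP alone. Since VIM outweighed the others, the filament mRNA as a whole followed it. The summed FPKM of the 10 genes was 1108 ± 34.5 in siC and 934 ± 64.2 in siMSI1 (SD, n = 3), which is 84.3%. The filament genes took 0.557% to 0.584% of all reads on genes in siC and 0.468% to 0.514% in siMSI1. The share of GFAP in the summed filament FPKM was 0.493% ± 0.030 in siMSI1, that of NES 6.63% ± 0.414 and that of VIM 92.6% ± 0.401 (SD, n = 3). PRPH took 0.0464% ± 0.0063 in siC and 0.122% ± 0.010 in siMSI1.

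The plain ratio of filament genes within a library does not depend on how libraries were scaled. The log2 ratios were taken after adding 0.1 to each FPKM, so for low genes they are not free of the scaling. GFAP amounted to 0.126%, 0.158% and 0.189% of VIM in the siC libraries and to 0.496%, 0.564% and 0.538% in the siMSI1 libraries. The groups were apart, and the log2 ratio differed by 1.72 (siMSI1 minus siC; exact permutation test, two-sided, p = 0.1, which is the smallest p that 3 against 3 libraries allow; adjusted over 3 ratios, 0.3). NES amounted to 6.55% to 6.85% of VIM in siC and to 6.80% to 7.70% in siMSI1. These ranges overlapped, and the log2 ratio differed by 0.095 (exact permutation test, p = 0.2, adjusted 0.3). SYNM amounted to 0.0876% to 0.104% of VIM in siC and to 0.0698% to 0.0925% in siMSI1, again with overlap, a difference of −0.19 in the log2 ratio and p = 0.3 in the exact permutation test. Adding 1 instead of 0.1 to each FPKM turned the sign of the last difference, to 0.035. The other 6 of 9 planned pairs held a gene under 0.5 FPKM and were not compared.

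The remaining 5 genes were near the limit of detection. DES encodes desmin, the filament of muscle, and was represented by 1, 18 and 3 reads in siC and by 11, 1 and 11 reads in siMSI1. These values span the whole range within each group, so that no difference was detectable at this depth. NEFL, the core subunit of neurofilaments, had 8, 3 and 2 reads in siC and 4 in each siMSI1 library. NEFM, the middle-sized subunit, had 4, 6 and 2 reads in siC and 2, 0 and 0 reads in siMSI1. NEFM had groups that did not overlap by FPKM, at 0.0317 to 0.0757 FPKM in siC and at most 0.0310 FPKM in siMSI1, but all its siMSI1 values lay under the floor of 3 reads, which corresponds to 0.0465 to 0.0522 FPKM there.

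NEFH, the heavy subunit that sets the spacing between neurofilaments, had 5, 16 and 5 reads in siC and 3, 3 and 5 reads in siMSI1. INA, alpha-internexin, a neurofilament subunit of developing central neurons, had 9, 5 and 2 reads in siC and 0, 0 and 6 reads in siMSI1. Both genes overlapped between the groups. A count of 0 allows a level of up to 3 reads, or 0.0630 and 0.0708 FPKM of INA in siMSI1 replicates 1 and 2, for counting error only. When no filter was applied, none of the 5 genes was called by limma and none had an unadjusted p under 0.05 (adjusted p from 0.27 for NEFM to 0.95 for NEFL).

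**Figure D3:**
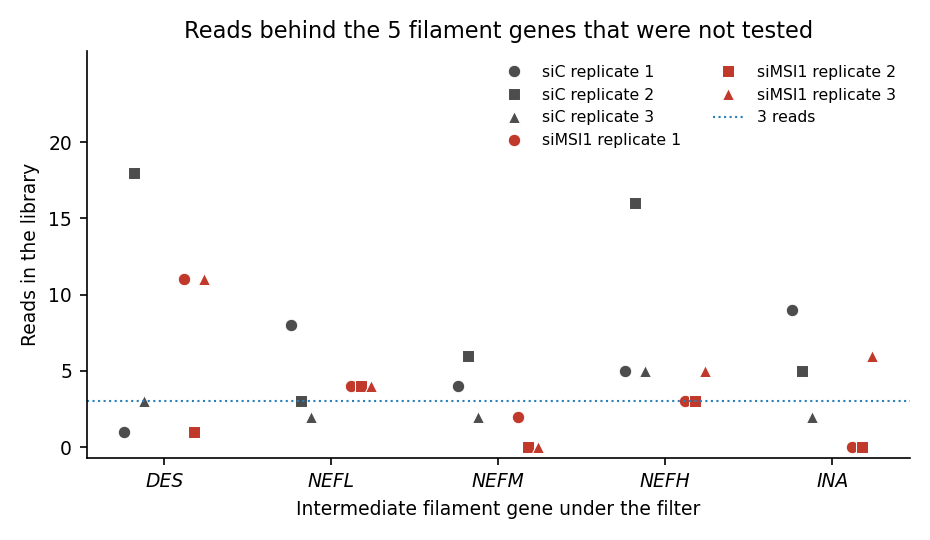
Number of reads in each library for the 5 filament genes under the filter, with siC in grey and siMSI1 in red and replicates by symbol. The dotted line marks 3 reads. No gene exceeds 18 reads, and no gene has groups that are apart in reads. NEFM has 2 reads in both siC replicate 3 and siMSI1 replicate 1.

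MSI1 binds single-stranded RNA, mainly in 3′UTRs, and its first RNA-binding domain is known to recognise GUAG. The 3′UTRs of the canonical transcripts were therefore searched for GUAG on the mRNA strand, overlaps allowed. GFAP, the only member called changed, held 18 copies in a 3′UTR of 4188 bases, or 4.30 per kb. The density was 2.70 per kb over 11260 tested protein-coding genes. NES held 3 in 559 bases (5.37 per kb) and SYNM 8 in 2535 bases (3.16 per kb). VIM held none in 322 bases. PRPH, which was also higher in every siMSI1 library, held none in 333 bases. Of 3′UTRs at least as long, 49.1% held the word in their first 322 bases, 50.5% in 333, 71.3% in 559, 99.8% in 2535 and 99.9% in 4188. A match is a run of letters, and binding of MSI1 to these RNAs was not analysed here. GFAP has 38 annotated transcripts, and which 3′UTR its mRNA carried in these cells was not examined. The density given for it holds for the canonical transcript only. The copies that are followed by U are shown for GFAP, NES and SYNM with 10 bases on either side, GUAG in capitals, and the position of its first base in the 3′UTR.
GFAP at 1348: aguauucuagGUAGugcccuauuu
GFAP at 2423: acgaggcuggGUAGugcccaugag
GFAP at 3122: aggcguaaaaGUAGucccccuugc
GFAP at 4068: cucaaaugauGUAGuauuugauca
NES at 399: ccucacugcaGUAGugcaccaucu
SYNM at 644: gaggacagcuGUAGucuguuguga
SYNM at 1647: gcuaccgcagGUAGuuucuggaga

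The bases before the transcription start are shown for PRPH and VIM, the vimentin-like genes that differed in direction, and for NES, which lay with VIM (RefSeq, GRCh38.p14, 250 bases on the strand of the gene). Promoters were searched on both strands for the TATA box (letters TATAAA), the CCAAT box, the GC box (letters GGGCGG), the AP-1 site (letters TGANTCA) and the STAT site (letters TTCNNNGAA). Matches are in capitals, with a match on the other strand seen as its reverse complement. PRPH held TATAAA with its first base 31 bases before the start, which 11.1% of 27305 promoters held anywhere in the window. VIM held 1 and NES 2 copies of GGGCGG, which 42.3% of promoters held at least once. The CCAAT box was held by 33.0%, the AP-1 site by 6.60% and the STAT site by 6.78% of promoters, and none of these was found in the 3 windows. Only the first listed RefSeq start of each gene was used, and any other start was not searched. GFAP, DES, NEFL, NEFM and NEFH were missing from the promoter table.
PRPH, chr12:49294897-49295146, plus strand: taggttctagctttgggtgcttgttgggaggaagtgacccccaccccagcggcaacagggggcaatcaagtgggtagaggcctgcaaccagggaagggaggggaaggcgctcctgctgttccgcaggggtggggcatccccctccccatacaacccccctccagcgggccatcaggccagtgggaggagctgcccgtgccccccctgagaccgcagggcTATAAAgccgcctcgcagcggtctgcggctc
VIM, chr10:17227991-17228240, plus strand: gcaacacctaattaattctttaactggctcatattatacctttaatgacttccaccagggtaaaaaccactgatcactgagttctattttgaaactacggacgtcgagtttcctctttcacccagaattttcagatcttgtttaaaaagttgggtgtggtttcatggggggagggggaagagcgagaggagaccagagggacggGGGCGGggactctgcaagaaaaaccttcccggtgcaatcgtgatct
NES, chr1:156677408-156677657, minus strand: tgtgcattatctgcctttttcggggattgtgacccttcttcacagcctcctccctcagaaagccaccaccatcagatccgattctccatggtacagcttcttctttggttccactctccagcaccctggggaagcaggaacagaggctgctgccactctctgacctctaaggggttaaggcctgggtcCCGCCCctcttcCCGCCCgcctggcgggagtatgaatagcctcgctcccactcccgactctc

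FPKM depends on the gene length by which reads were divided. The authors' length of GFAP (12110 bases) was 2.20 times, that of VIM (5158 bases) 2.39 times and that of PRPH (4353 bases) 2.42 times the canonical transcript, while those of NES and SYNM were 0.998 and 1.06 times as long. Dividing by the canonical transcript instead, an alternative chosen after the data were seen, put VIM at 2479 ± 80.9, GFAP at 3.59 ± 0.738 and PRPH at 1.25 ± 0.203 FPKM in siC (SD, n = 3). VIM, NES and GFAP kept their order, but PRPH and SYNM (1.04 ± 0.063 FPKM) were then not apart in siC. In siMSI1, PRPH was above SYNM by either length. The ratio of siMSI1 to siC in FPKM does not depend on the length.

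Some filament genes share their locus with other genes, and whether reads were counted by strand is not given in the sources used here, so that reads of such pairs may not be told apart. VIM is overlapped on the opposite strand by VIM-AS1, at 30.3 ± 6.67 FPKM in siC and 31.8 ± 3.59 FPKM in siMSI1, and by AL133415.1, at 176 ± 25.1 and 159 ± 52.7 FPKM (SD, n = 3). Neither was called (adjusted p of 0.72 and 0.62, limma). GFAP is overlapped by CCDC103, which is needed to assemble the dynein arms of cilia, at 0.279 ± 0.059 FPKM in siC and 0.505 ± 0.119 FPKM in siMSI1, and by FAM187A, at 0 in all libraries. CCDC103 was under the filter, with groups that did not overlap, and its part in the reads of GFAP was not tested. The antisense genes of SYNM, PRPH, DES and the neurofilament genes were under the filter, NT5C2 beside INA was at 14.5 ± 0.050 and 14.1 ± 0.594 FPKM (SD, n = 3), and NES overlaps no annotated gene.

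The genes most like a member were those with the highest Pearson correlation of log2(FPKM + 0.1) over the 6 libraries. For GFAP they were GPER1 (r = 0.999), KCND1 (0.998) and UQCR11 (0.998), and for VIM they were DENND1A (r = 0.9997), CDK16 (0.998) and EXTL3 (0.998). Since the libraries form 2 groups, a gene that differs between the groups correlates with any other such gene, and 579 genes reached an r of 0.95 with GFAP and 570 with VIM. GPER1, a membrane estrogen receptor, was at 3.16 to 4.39 FPKM in siC and 7.67 to 8.73 FPKM in siMSI1, whereas UQCR11, a subunit of a respiratory chain complex, was at 24.1 to 25.1 and 26.8 to 27.3 FPKM and was not called (adjusted p = 0.11, limma).

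Around the filament genes, 6 lists of 106 genes were read. Of these, 84 passed the filter and 9 were called, 4 higher and 5 lower, with a median log2 fold change of −0.0014. The counts are to be read against the 11.0% of all tested genes that were called (5.15% higher, 5.83% lower). Among 20 other filament genes (lamins, keratins, lens and related subunits), 11 were tested and 1 was called, SYNC, which encodes the desmin- and vimentin-binding subunit syncoilin and was higher at 7.86 ± 0.192 against 5.69 ± 0.431 FPKM (log2 fold change 0.46, adjusted p = 0.0066, limma). SYNC was called in 8 of 16 alternatives. The epithelial keratins KRT8 (1.06 ± 0.135 FPKM in siC, 1.05 ± 0.368 in siMSI1) and KRT18 (23.1 ± 1.80 and 19.4 ± 1.96) were not called. The nuclear lamins LMNA and LMNB1 were not called either, at 124 ± 8.49 against 144 ± 14.7 FPKM (adjusted p = 0.12, limma) and at 49.3 ± 2.96 against 39.7 ± 1.40 FPKM (adjusted p = 0.0146, limma).

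Of 15 linkers that tie filaments to other structures, 9 were tested and 1 was called. DSP, desmoplakin, which anchors filaments at desmosomes, fell from 25.4 ± 1.66 FPKM in siC to 11.2 ± 0.423 FPKM in siMSI1 (SD, n = 3; log2 fold change −1.17, adjusted p = 0.00021, limma). PLEC, plectin, the general cross-linker of vimentin, was at 18.7 ± 1.29 and 18.8 ± 2.09 FPKM. Among 18 genes of transport, chaperoning and turnover, 17 were tested and 4 were called. CRYAB, alpha-B-crystallin, a small heat shock protein that binds GFAP and desmin filaments, rose from 62.1 ± 2.30 to 139 ± 14.3 FPKM (log2 fold change 1.16, adjusted p = 0.00027, limma). HSPB1, of the same family, rose from 199 ± 11.7 to 304 ± 38.9 FPKM (adjusted p = 0.0046, limma; called in 10 of 16 alternatives). DNAJB6, a co-chaperone, fell from 15.9 ± 0.323 to 10.5 ± 0.316 FPKM (adjusted p = 0.00080, limma), and CASP6, the caspase that cleaves lamins and vimentin, fell from 29.7 ± 1.17 to 22.5 ± 1.17 FPKM (adjusted p = 0.0053, limma; called in 9 of 16 alternatives).

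All 18 kinases and phosphatases that act on filaments were tested and 1 was called. CDK1, which phosphorylates vimentin and nestin in mitosis, was at 19.7 ± 1.42 FPKM in siC and 13.9 ± 1.47 FPKM in siMSI1 (adjusted p = 0.0083, limma; called in 9 of 16 alternatives). A list of 20 genes around the activation of GFAP in astroglia held mostly members and regulators of the cytokine, BMP and NFI pathways. Of these 20 genes, 19 were tested and 1 was called. LIF, a cytokine that acts through STAT3, rose from 7.71 ± 0.313 to 14.6 ± 0.328 FPKM (log2 fold change 0.91, adjusted p = 0.00027, limma). STAT3 itself was at 42.8 ± 1.26 and 48.4 ± 2.72 FPKM (adjusted p = 0.094, limma) and was not called.

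Among 15 genes that control neurofilament mRNA or neuronal genes, 10 were tested and 1 was called. NEUROG2, a proneural transcription factor, fell from 4.30 ± 0.399 to 1.29 ± 0.279 FPKM (log2 fold change −1.67, adjusted p = 0.00057, limma). REST, the repressor of neuronal genes, was at 1.48 ± 0.215 and 1.65 ± 0.129 FPKM (SD, n = 3; adjusted p = 0.51, limma) and was not called.

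**Figure D4:**
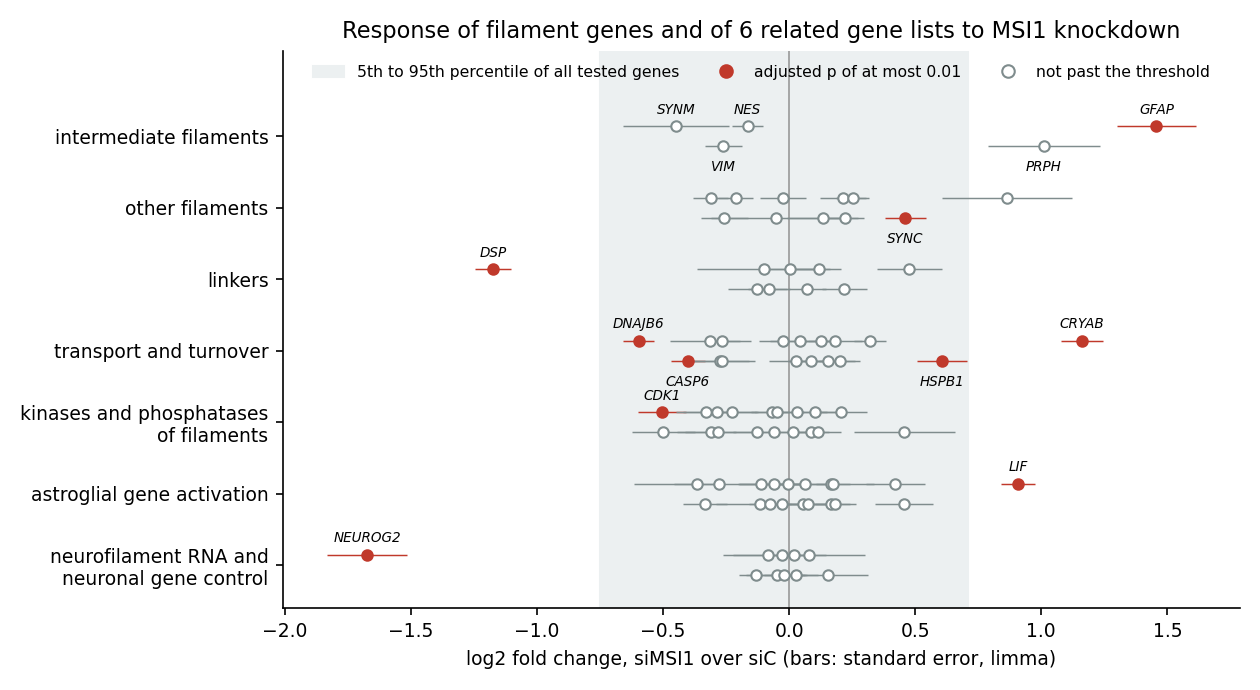
Log2 fold change of siMSI1 over siC with its standard error (limma, n = 3 per group) for the tested filament genes and the tested members of the 6 lists. Filled red points were called at an adjusted p of at most 0.01 and are named, open points were not, and the shaded band holds the 5th to 95th percentile of all tested genes. GFAP and PRPH lie above the band, and VIM, NES and SYNM within it.

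Markers of the cell types that use these filaments moved in both directions beside GFAP. The counts per list are small and stand beside 11.0% of all tested genes that were called. Of 8 astrocyte markers, 5 were tested and 3 were called: AQP4 (a water channel) rose, GJA1 (a gap junction protein) and SOX9 (a glial transcription factor) fell, and S100B and ALDH1L1 were at 0 in all libraries. AQP4 was at 24.3 ± 2.002 FPKM in siC and 42.5 ± 4.30 FPKM in siMSI1 (adjusted p = 0.0013, limma), GJA1 at 275 ± 21.6 and 180 ± 18.0 FPKM (adjusted p = 0.0036) and SOX9 at 22.2 ± 0.360 and 14.6 ± 0.833 FPKM (SD, n = 3; adjusted p = 0.0010). GJA1 was called in 11 of 16 alternatives. The list summed to 366 to 412 FPKM in siC libraries and 292 to 330 FPKM in siMSI1 libraries, but without GJA1 to 112 to 115 and 131 to 134.5 FPKM, and its median log2 fold change was 0.16. Of 9 neuron markers, 5 were tested and 3 were called: UCHL1 rose, SYN1 and SYP fell, and RBFOX3 was at 0. UCHL1 was called in 11, SYP in 10 and SYN1 in 9 of 16 alternatives, and SYN1 in none of the fits without 1 library. The list summed to 167 to 175 FPKM in siC libraries and 205 to 227 FPKM in siMSI1 libraries, but without UCHL1 to 24.6 to 25.1 and 16.98 to 18.37 FPKM, and its median log2 fold change was −0.43. Of 9 muscle markers, 3 were tested and 2 were called, ACTA2 lower (in 9 of 16 alternatives) and CNN1 higher, with MYOD1 at 0 and sums of 114 to 122 and 82.7 to 105 FPKM. Of 7 oligodendrocyte lineage markers only PDGFRA was tested, and OLIG1, OLIG2 and MOG were at 0. Of 6 fibroblast markers 2 were tested and none was called by limma or any alternative or had an unadjusted p under 0.05, with sums of 2.83 to 6.77 and 2.70 to 5.09 FPKM. No marker of endothelium, immune cells or epithelium passed the filter, and their sums were at most 0.553 FPKM in any library. The part of other cell types in the filament values was not tested.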

How the data were processed

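Strand-specific polyA libraries of KNS42 cells (3 siC, 3 siMSI1) were sequenced to 150 bp from 800 ng of RNA. Per the labels and methods, the authors used cutadapt 1.14, HISAT2 2.1.0 on GRCh38, SAMtools 1.5, featureCounts 1.5.3 with Ensembl release 89, and edgeR 3.18.1. They deposited FPKM values per gene and library, together with their own log2 fold changes, p-values and false discovery rates, which were not used. Multiplied by gene length, 100% of the FPKM values were whole reads within 0.001 of a read.

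The group was fitted to log2(FPKM + 0.1) with limma 3.58.1 under R 4.3.3 (eBayes with trend and robust, two-sided). The deposited unit is FPKM, so a count test was not chosen as the main test and edgeR was not run. A count-based fit, voom on the recovered reads, was run as an alternative. Gene models were from GENCODE release 44, which held 98.7% of the gene identifiers, and promoters from RefSeq. Python 3.11.15 with SciPy 1.17.1 did the rest. The fit was also run on simulated counts with planted fold changes. The spread of these counts followed the same setting for all genes, so that run does not show how the calls hold for these libraries. Named were all 10 filament genes, MSI1, genes overlapping a member, up to 5 called genes per list, KRT8, KRT18, LMNA, LMNB1, PLEC, CRYAB, STAT3 and REST, and the 3 genes most alike GFAP and VIM. Members, lists and this rule were chosen with earlier results of these data known, and 1 listed gene is not reported here. No libraries were duplicates (chi-square per degree of freedom at least 3.55 within groups). The alternatives were other added values, filters, scalings, variance moderation, thresholds, voom, a replicate block and leaving out each library.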

Additional observations from a re-analysis of the deposited data

How the results depend on the processing

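The number of called genes moved more with the settings than the fold changes did. Of all tested genes, 1655 were called; 792 were called with no filter on low genes, 847 with limma's plain variance moderation, 2855 with voom on the recovered reads, 3787 at an adjusted p of 0.05 and 294 with a 2-fold change required as well. When each library was left out in turn, the count was 528 to 1603, with the lowest without siC replicate 1. Of the filament genes, 1 was called; 2 were called with quantile normalization or plain moderation and 3 with voom or at an adjusted p of 0.05, and leaving out libraries gave 1 to 2, with VIM called beside GFAP without siMSI1 replicate 3. Of the 6 lists, 9 genes were called; 5 were called with no filter or plain moderation, 19 with voom, 21 at an adjusted p of 0.05 and 3 with a 2-fold change, and leaving out libraries gave 5 to 8, with 5 without any one siC library. The difference in the log2 ratio of SYNM to VIM reversed to 0.0348 with an added value of 1. The cause of these changes was not tested. voom was run with the authors' scaling of the libraries. GFAP and MSI1 stayed past the threshold in all 16 alternatives, and no fold change of a tested filament gene changed sign. The libraries form only 3 against 3, and genes of a few reads allow no statement on change.

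Whether the replicate numbers pair the libraries could not be told. The deviations of same-numbered libraries correlated at −0.066, 0.078 and 0.083, and those of differently numbered libraries at −0.144 to 0.070. With 3 libraries per group, correlations this weak do not settle it. The replicate block called 2250 of all tested genes, 1 filament gene and 15 genes of the lists. voom with the replicate block called 5070, 3 and 35 of them.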

Other observations

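Outside the filaments of glia and neurons, further genes of the lists had groups that did not overlap without passing the threshold. Of all tested genes, called or not, 42.8% had groups that did not overlap. KRT7, a keratin of simple epithelia, was at 0.558 ± 0.102 FPKM in siC and 1.11 ± 0.295 FPKM in siMSI1 (SD, n = 3; log2 fold change 0.86, adjusted p = 0.044, limma). CAPN2, a calpain that cleaves filament proteins, was at 27.2 ± 0.374 and 34.1 ± 1.86 FPKM (log2 fold change 0.32, adjusted p = 0.0105, limma; called in 6 of 16 alternatives). ROCK2, a kinase of GFAP and vimentin, was at 12.2 ± 1.36 and 8.66 ± 1.27 FPKM (log2 fold change −0.50, adjusted p = 0.024, limma). SOCS3, a feedback inhibitor of STAT3 signalling, was at 27.2 ± 2.38 and 37.6 ± 5.65 FPKM (log2 fold change 0.46, adjusted p = 0.024, limma). These 4 genes were chosen after their values were seen, and other uncalled genes of the lists were also without overlap. In the list that holds SOCS3, BMPR1A and NFIB were lower (adjusted p = 0.023 and 0.027, limma) and SMAD1 was higher (adjusted p = 0.035, limma).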
